A study of Mus musculus with 18 samples.

Results

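The genes described here are 10 genes of blood vessel growth and of the vessel lining: the growth factor Vegfa, its receptors Kdr, Flt1 and Nrp1, the angiopoietins Angpt1 and Angpt2 with their receptor Tek, and the endothelial surface genes Pecam1, Cdh5 and Plvap. They were followed through every probe set that the platform annotation paired with one of these symbols alone, which gave 16 probe sets among the 22626 that were not controls, and 10 of the 12393 genes named on the array. Flt1 and Nrp1 had 3 probe sets each, Vegfa and Cdh5 had 2 each, and the other 6 genes had 1 each. Where a gene had several, the probe set with the highest mean log2 intensity leads and is meant when no other is named.

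Kidneys of TIMP3-/-, TIMP2-/- and wild-type (WT) mice, all on the C57BL/6 strain, were compared 3 days after unilateral ureteral obstruction (UUO), in which the right ureter was doubly tied while the nerves and vessels of the kidney were spared. Sham-operated mice of each genotype had the same surgery with no ligature, so every kidney came from an operated mouse. Total RNA of the kidney on the operated side was hybridised to Affymetrix mouse arrays, and the 6 groups (TIMP3-/- UUO, TIMP3-/- sham, TIMP2-/- UUO, TIMP2-/- sham, WT UUO and WT sham) held 3 arrays each, 18 in all, described by the labels as biological replicates. The labels give neither the age of the mice nor how the TIMP genes were disrupted. An array is named by its group and the number in its label, such as WT UUO 2.

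VEGF-A is a secreted growth factor made in the kidney by podocytes and tubular epithelium. It acts on KDR, the main signalling receptor of capillary endothelium, while FLT1 binds it tightly and, in its soluble form, traps it, and NRP1 serves as a co-receptor. ANGPT1 activates the endothelial receptor TIE2, the product of Tek, and steadies vessels, whereas ANGPT2 can oppose it. TIMP3 is known to bind KDR and block its occupation by VEGF-A, and TIMP2 is known to restrain endothelial growth, both apart from their inhibition of metalloproteinases.

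The promoter windows of VEGF-A and its receptors are shown because Vegfa and Flt1 fell together after obstruction while Nrp1 did not fall. The 250 bases before a transcript start in RefSeq's annotation of build GRCm38.p6 were taken, and windows were matched for 5 of the 10 genes (these 4 and Tek). Vegfa had 2 windows, of which the one at the outer end of the gene is shown. The windows of Kdr, Flt1 and Nrp1 lie inside the outermost ends that RefSeq gives for those genes. The Vegfa window lies at chr17:46032378-46032627 on the minus strand, that of Kdr at chr5:75978456-75978705 (minus), that of Flt1 at chr5:147726012-147726261 (minus) and that of Nrp1 at chr8:128358823-128359072 (plus). Capitals mark AGGAAG, an ETS-type core. All are written 5′ to 3′ along the gene.
Vegfa: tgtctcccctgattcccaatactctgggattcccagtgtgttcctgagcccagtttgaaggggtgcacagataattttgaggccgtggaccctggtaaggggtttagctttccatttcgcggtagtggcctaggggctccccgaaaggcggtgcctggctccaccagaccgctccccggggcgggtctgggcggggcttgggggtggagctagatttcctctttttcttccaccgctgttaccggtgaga
Kdr: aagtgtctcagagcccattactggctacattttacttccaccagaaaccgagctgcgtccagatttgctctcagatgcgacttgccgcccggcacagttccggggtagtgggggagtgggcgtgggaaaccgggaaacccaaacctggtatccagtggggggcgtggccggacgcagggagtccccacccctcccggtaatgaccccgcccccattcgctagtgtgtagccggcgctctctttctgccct
Flt1: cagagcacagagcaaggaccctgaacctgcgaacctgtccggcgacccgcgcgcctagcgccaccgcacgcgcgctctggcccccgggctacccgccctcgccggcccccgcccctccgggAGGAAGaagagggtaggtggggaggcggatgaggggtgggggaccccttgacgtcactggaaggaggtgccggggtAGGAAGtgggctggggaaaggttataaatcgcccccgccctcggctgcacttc
Nrp1: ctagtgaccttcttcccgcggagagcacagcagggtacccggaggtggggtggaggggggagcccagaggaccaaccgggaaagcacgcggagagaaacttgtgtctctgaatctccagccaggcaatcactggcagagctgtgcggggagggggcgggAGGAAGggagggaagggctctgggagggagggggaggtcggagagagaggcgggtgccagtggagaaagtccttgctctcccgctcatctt
AGGAAG and ACGTG, a form of the core of the hypoxia response element, were searched on both strands. AGGAAG was found 2 times in the Flt1 window, beginning 129 and 53 bases before the start, and 1 time in the Nrp1 window, 91 bases before it. It was not found in the Vegfa, Kdr and Tek windows, and 29.5% of 32851 mouse promoter windows of that length hold it. ACGTG was found in none of these 5 windows and in 16.6% of all. The other form of that core, GCGTG, and bases further upstream were not searched, so a lack of hypoxia response elements was not tested. The share of G and C was 70.4% for Flt1, 64.4% for Nrp1, 61.6% for Kdr and 59.2% for Vegfa, against a median of 52.4% over all windows. The probe sets carry no start site information, so which start was in use in these kidneys was not measured.

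The targeted genes were checked first. The leading Timp3 probe set averaged 36.9 ± 3.10 units in TIMP3-/- UUO against 4863 ± 534 in WT UUO, and 49.2 ± 10.2 in TIMP3-/- sham against 7500 ± 1436 in WT sham (linear intensity, mean ± SD, n = 3). The leading Timp2 probe set averaged 823.9 ± 77.8 in TIMP2-/- UUO against 4138 ± 587 in WT UUO, and 639.8 ± 60.1 in TIMP2-/- sham against 1179 ± 263 in WT sham. Medians of the arrays lay between 201.2 and 247.4 units. 4 arrays stood apart: WT UUO 2, whose 13 hepatocyte markers summed to 113177 units against at most 22128 on any other array; WT sham 3 and TIMP3-/- UUO 2, which lay at the far end of the second principal component (16.6% of the variance); and TIMP3-/- UUO 1, which together with WT UUO 2 had the highest endothelial, platelet and macrophage marker sums. Some of the results that rest on them are given with and without them, and the others include them.

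Obstruction changed some of these genes in the same direction in every genotype. Of the 16 probe sets, 9 passed in TIMP3-/- kidneys (5 higher, 4 lower), 8 in TIMP2-/- kidneys (3 higher, 5 lower) and 8 in WT kidneys (3 higher, 5 lower), UUO against sham. A probe set passed at an adjusted p under 0.05 in limma's moderated test, fitted to all 18 arrays and adjusted with the Benjamini-Hochberg method over the 22626 probe sets. The background was wide. Of all probe sets, 62.5% passed in TIMP3-/- kidneys (25% higher, 37.5% lower), 35% in TIMP2-/- kidneys (14.1% higher, 20.9% lower) and 30.8% in WT kidneys (14.7% higher, 16.1% lower). The counts among these genes, and those of every gene list below for UUO against sham, are read against those shares. Without TIMP3-/- UUO 1 and WT UUO 2, a setting chosen after seeing the data, 8 of the 16 passed in TIMP3-/-, 9 in TIMP2-/- and 6 in WT kidneys. UUO and sham arrays did not overlap for 9 of the 16 in TIMP3-/- (61.9% of all probe sets), 13 in TIMP2-/- (53.2%) and 9 in WT kidneys (47.8%). The median log2 fold change of the 16 was 0.14 in TIMP3-/-, -0.09 in TIMP2-/- and -0.09 in WT kidneys, beside -0.18, -0.12 and -0.12 over all probe sets in the same order. The median intensity of the arrays themselves was higher after UUO by 0.23, 0.15 and 0.13 on the log2 scale in that order; centring the arrays on their medians lowers each fold change below by that amount and turned the sign of no value that passed. All 9 UUO arrays stood apart from all 9 sham arrays for 4 of the 16 probe sets, as they did for 18.7% of all probe sets. These were the leading ones of Pecam1 and Cdh5 (higher) and of Flt1 (lower), and 1451959_a_at of Vegfa (lower).

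**Figure D1:**
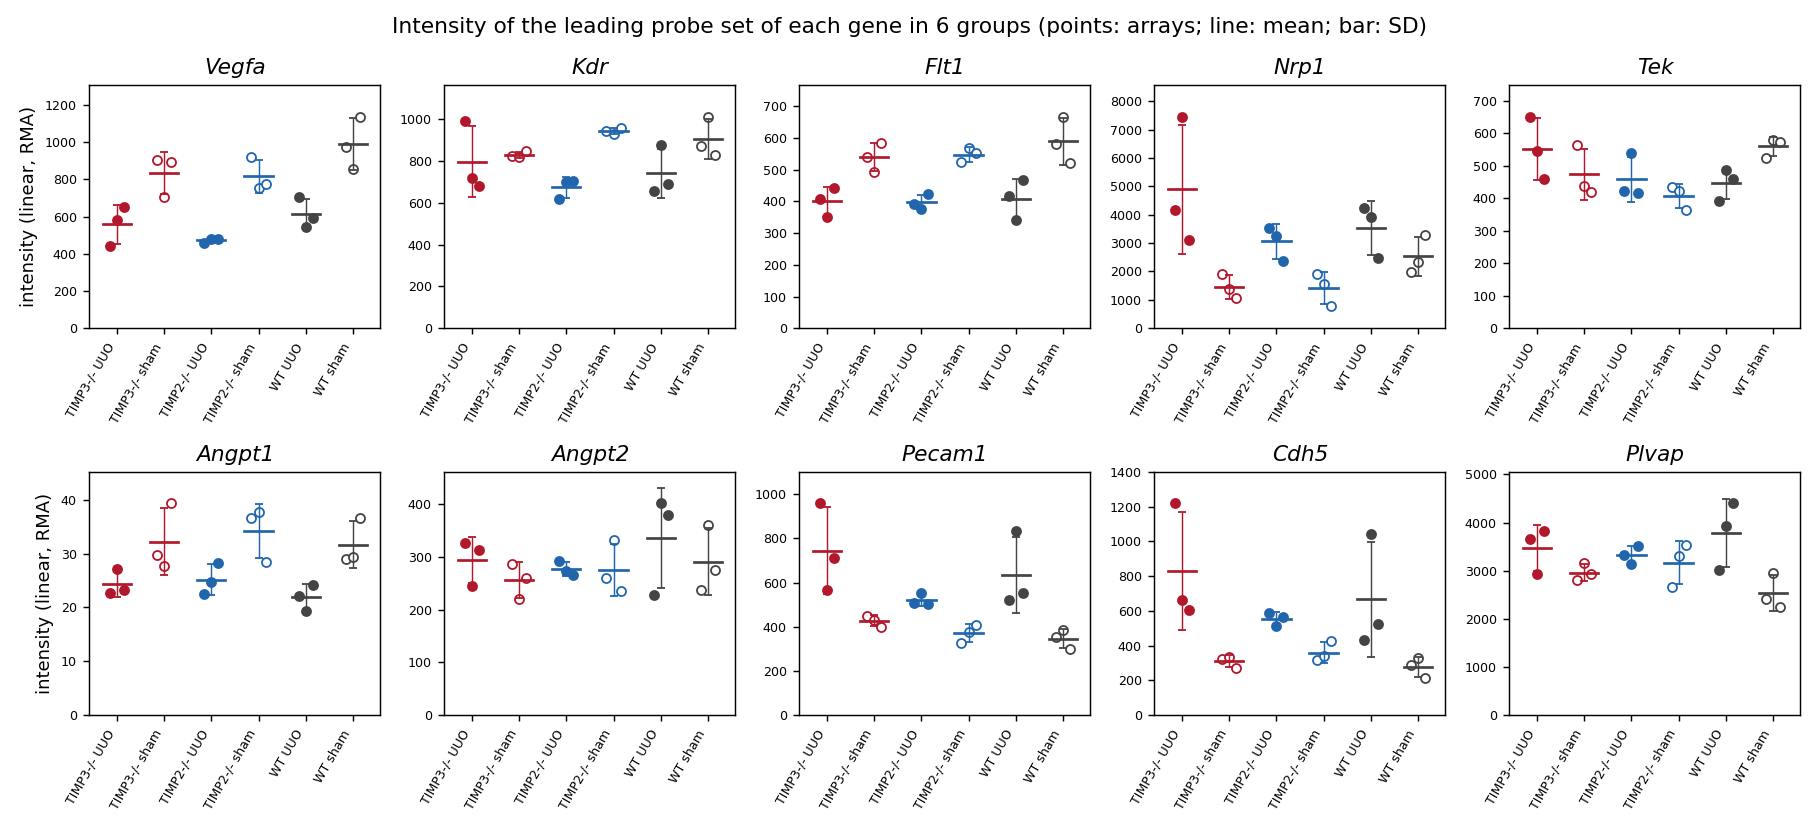
Linear RMA intensity of the leading probe set of each of the 10 genes in the 6 groups, with 3 arrays each as points (filled for UUO, open for sham), the mean as a line and the SD as a bar. Cdh5 and Pecam1 stand higher and Vegfa and Flt1 lower after UUO in each genotype; TIMP3-/- UUO 1 and WT UUO 2 are the highest Cdh5 points, at 1219 and 1043 units.

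**Figure D2:**
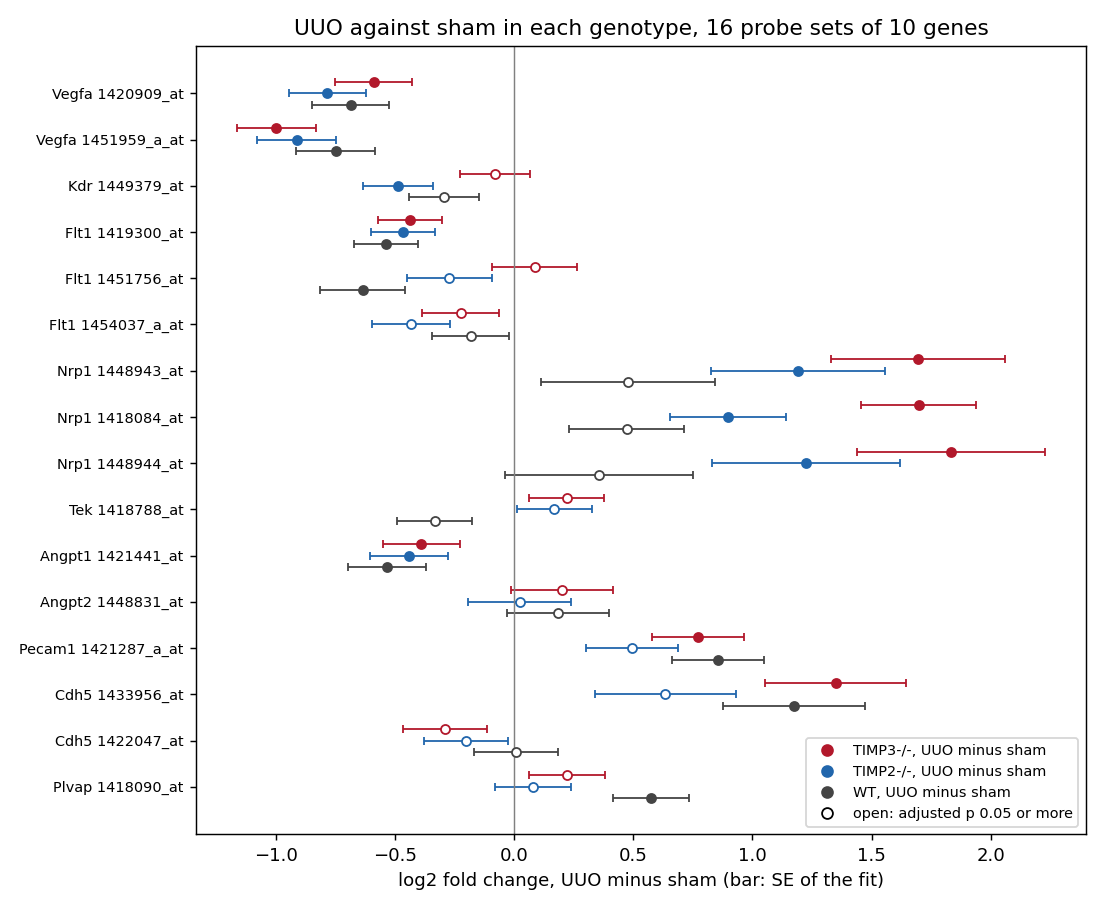
Log2 fold change, UUO minus sham, of the 16 probe sets in TIMP3-/-, TIMP2-/- and WT kidneys, with the SE of the fit as a bar and open points for an adjusted p of 0.05 or more. Both Vegfa probe sets lie left of 0 with filled points in all 3 genotypes, and the 3 Nrp1 probe sets are filled in TIMP3-/- and TIMP2-/- and open in WT.

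Vegfa, the ligand, fell after obstruction in all 3 genotypes by both probe sets. The leading probe set, 1420909_at, read 441.2, 580.7 and 651.6 units in TIMP3-/- UUO kidneys, against 905.9, 703.2 and 891.7 in TIMP3-/- sham. It read 456.6, 481.6 and 481.4 in TIMP2-/- UUO kidneys, against 919.1, 754.9 and 776.6 in TIMP2-/- sham, and 705.3, 546 and 595 in WT UUO kidneys, against 975, 858.2 and 1137 in WT sham. Within each genotype every obstructed kidney lay below every sham kidney, and TIMP2-/- UUO had the tightest values of the 6 groups. The log2 fold changes were -0.59 ± 0.16 in TIMP3-/- (SE; adjusted p = 0.00608), -0.78 ± 0.16 in TIMP2-/- (adjusted p = 0.00258) and -0.68 ± 0.16 in WT kidneys (adjusted p = 0.00505). Without WT UUO 2, WT sham 3 and TIMP3-/- UUO 2, the WT value was -0.50 and did not pass (adjusted p = 0.0955).

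The other Vegfa probe set, 1451959_a_at, read 241, 189.4 and 281.3 units in TIMP3-/- UUO against 390.6, 513.8 and 507.8 in TIMP3-/- sham. It read 192.8, 214.1 and 288.2 in TIMP2-/- UUO against 434.4, 403.3 and 452 in TIMP2-/- sham, and 262.9, 235.3 and 273.1 in WT UUO against 455.4, 424.1 and 414.3 in WT sham. All 9 UUO arrays lay below all 9 sham arrays. It fell by 1.00 ± 0.17 on the log2 scale in TIMP3-/- (adjusted p = 0.000189), by 0.91 ± 0.17 in TIMP2-/- (adjusted p = 0.00117) and by 0.75 ± 0.17 in WT kidneys (adjusted p = 0.00346). In whole-kidney RNA, fewer cells of a type and less of the transcript in each cell cannot be told apart. Of 11 markers of the kidney tubule, a source of VEGF-A, 10 fell in TIMP3-/-, 9 in TIMP2-/- and 9 in WT kidneys, with medians of -2.33, -1.36 and -1.75. Their summed intensity ran from 27125 to 70889 in the UUO arrays against 103158 to 118700 in the sham arrays, and their part in the fall of Vegfa was not tested. Of 7 markers of podocytes, the other source, 3 rose and 1 fell in TIMP3-/-, 2 rose and 1 fell in TIMP2-/- and 2 rose and 0 fell in WT kidneys, and their sums overlapped (4482 to 6110 after UUO, 3417 to 5406 after sham).

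Angpt2 passed in no genotype, and Angpt1 passed as lower at a low signal. Angpt2, which can oppose TIE2 activation, read 325.9, 245.1 and 313.4 units in TIMP3-/- UUO against 287.5, 220.2 and 259.6 in TIMP3-/- sham. It read 292.7, 272.5 and 266.5 in TIMP2-/- UUO against 259.5, 331.3 and 235.5 in TIMP2-/- sham, and 227, 401.6 and 380 in WT UUO against 237.6, 360.7 and 275.1 in WT sham. UUO and sham values overlapped in every genotype, and the log2 fold changes of 0.20 ± 0.21, 0.02 ± 0.21 and 0.19 ± 0.21 (TIMP3-/-, TIMP2-/-, WT) did not pass (adjusted p = 0.416, 0.94 and 0.535).

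Angpt1, the activating ligand of TIE2, was dim: its 18 values lay between 19.32 and 39.34 units, below the lower quartile of every array (56.8 to 64.2). It read 22.72, 27.22 and 23.29 units in TIMP3-/- UUO against 29.73, 27.62 and 39.34 in TIMP3-/- sham, 22.53, 24.69 and 28.2 in TIMP2-/- UUO against 36.54, 37.76 and 28.45 in TIMP2-/- sham, and 22.04, 19.32 and 24.25 in WT UUO against 29.03, 29.32 and 36.69 in WT sham. The groups did not overlap, by less than 1 unit in TIMP3-/- and TIMP2-/-. It passed narrowly as lower in each genotype, with log2 fold changes of -0.39 ± 0.16 in TIMP3-/- (adjusted p = 0.0489), -0.44 ± 0.16 in TIMP2-/- (adjusted p = 0.0469) and -0.53 ± 0.16 in WT kidneys (adjusted p = 0.0222). None of the 3 calls held when the arrays were quantile normalized again (adjusted p = 0.297, 0.163 and 0.0856 in that order), and the TIMP3-/- call ended with the replicate number as a block (adjusted p = 0.0504).

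Among the receptors, the leading Flt1 probe set fell in every genotype. Flt1 encodes VEGFR1, which binds VEGF-A and placental growth factor. Probe set 1419300_at read 406.1, 350.4 and 443 units in TIMP3-/- UUO against 541.3, 494 and 582.9 in TIMP3-/- sham. It read 390.4, 377.3 and 422.3 in TIMP2-/- UUO against 522.6, 568.7 and 551.8 in TIMP2-/- sham, and 415.4, 341.1 and 465.8 in WT UUO against 581.5, 667 and 520.3 in WT sham. Every one of the 9 UUO values lay below every sham value. The log2 fold changes were -0.44 ± 0.14 in TIMP3-/- (adjusted p = 0.0122), -0.47 ± 0.14 in TIMP2-/- (adjusted p = 0.0167) and -0.54 ± 0.14 in WT kidneys (adjusted p = 0.00754). Single arrays decided some of these calls: the TIMP3-/- value was -0.34 without TIMP3-/- UUO 2 (adjusted p = 0.06) and -0.38 without TIMP3-/- sham 3 (0.0544), and the TIMP2-/- value was -0.46, -0.43 and -0.44 without TIMP2-/- UUO 1, UUO 2 and sham 2 (adjusted p = 0.0573, 0.0678 and 0.0532). With only the arrays compared in the fit, the TIMP3-/- and WT calls were lost as well (adjusted p = 0.054 and 0.0596).

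The Flt1 probe sets did not move alike. Probe set 1451756_at read 305.7, 364 and 339.5 units in TIMP3-/- UUO against 366.7, 278.3 and 309.3 in TIMP3-/- sham, with a log2 fold change of 0.09 ± 0.18 (adjusted p = 0.68). In TIMP2-/- kidneys it read 288, 267.6 and 236.8 after UUO against 303, 344 and 307.8 after sham (-0.27 ± 0.18, adjusted p = 0.239). In WT kidneys it read 235.9, 285.3 and 239.9 after UUO against 306.6, 361.7 and 544.2 after sham, and fell by 0.63 ± 0.18 on the log2 scale (adjusted p = 0.014). The WT call turned on WT sham 3, its highest array: without it the value was -0.40 (adjusted p = 0.0679); it was also lost without WT UUO 1 (adjusted p = 0.0534). The annotation does not say which Flt1 transcripts, soluble or membrane-bound, each probe set reads. The third, 1454037_a_at, was dim at 59.25 to 103.9 units and did not pass in TIMP3-/- (-0.22 ± 0.16, adjusted p = 0.233), TIMP2-/- (-0.43 ± 0.16, 0.0502) or WT kidneys (-0.18 ± 0.16, 0.412). Under 5 other settings it passed as lower in TIMP2-/- kidneys (adjusted p from 0.0157 to 0.0479), and with arrays centred on their medians it did so in TIMP3-/- kidneys too (-0.46, adjusted p = 0.0273).

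Kdr, the main signalling receptor for VEGF-A and the receptor that TIMP3 binds, passed as lower in TIMP2-/- kidneys. It read 991.3, 719.8 and 679.2 units in TIMP3-/- UUO against 823.1, 821.1 and 846.3 in TIMP3-/- sham. It read 616, 700.3 and 704 in TIMP2-/- UUO against 942.4, 928.3 and 955.9 in TIMP2-/- sham, and 658.2, 876 and 690 in WT UUO against 872, 1012 and 829.1 in WT sham. The TIMP2-/- groups stood well apart, while in TIMP3-/- and WT kidneys 1 obstructed kidney, TIMP3-/- UUO 1 or WT UUO 2, reached into or above the sham values. The log2 fold changes were -0.08 ± 0.15 in TIMP3-/- (adjusted p = 0.641), -0.49 ± 0.15 in TIMP2-/- (adjusted p = 0.019) and -0.29 ± 0.15 in WT kidneys (adjusted p = 0.136). Without those 2 arrays, Kdr was -0.25 in TIMP3-/- (adjusted p = 0.0837), -0.49 in TIMP2-/- (0.00356) and -0.42 in WT kidneys (0.022). With arrays centred on their medians it also passed as lower in WT kidneys (-0.42, adjusted p = 0.0391). The TIMP2-/- call was lost without TIMP2-/- UUO 1 (adjusted p = 0.0843) or TIMP2-/- sham 3 (0.0568). The difference between the genotypes in this response was 0.21 for TIMP3-/- minus WT (95% interval -0.22 to 0.65) and -0.19 for TIMP2-/- minus WT (-0.63 to 0.24), and neither passed.

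Nrp1, the co-receptor that is also carried by macrophages and other non-endothelial cells, had the largest log2 fold changes of the 10 genes in TIMP3-/- and TIMP2-/- kidneys. Probe set 1448943_at read 4149, 7455 and 3097 units in TIMP3-/- UUO against 1896, 1384 and 1075 in TIMP3-/- sham. It read 3549, 3265 and 2378 in TIMP2-/- UUO against 1903, 1561 and 779.2 in TIMP2-/- sham, and 4241, 3928 and 2462 in WT UUO against 1974, 2333 and 3285 in WT sham. The groups were apart in TIMP3-/- and TIMP2-/- kidneys and overlapped in WT kidneys, where WT sham 3 lay above WT UUO 3. Its log2 fold change was 1.70 ± 0.37 in TIMP3-/- (adjusted p = 0.00126), a 3.24-fold rise, and 1.19 ± 0.37 in TIMP2-/- (adjusted p = 0.0215), a 2.28-fold rise. In WT kidneys it was 0.48 ± 0.37 (adjusted p = 0.332). The size of the TIMP3-/- rise leans on TIMP3-/- UUO 2, an array that stood apart, at 7455 units.

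The 2 further Nrp1 probe sets gave the same picture. Probe set 1418084_at read 2096, 2743 and 2059 units in TIMP3-/- UUO against 887.2, 623.1 and 628.5 in TIMP3-/- sham, and 1647, 1606 and 1134 in TIMP2-/- UUO against 827.3, 945 and 593.9 in TIMP2-/- sham. It read 1689, 1944 and 1231 in WT UUO against 868.7, 1211 and 1437 in WT sham, where the groups overlapped through WT sham 3 and WT UUO 3. It had log2 fold changes of 1.70 ± 0.24 in TIMP3-/- (adjusted p = 4.82e-05), 0.90 ± 0.24 in TIMP2-/- (0.0117) and 0.47 ± 0.24 in WT kidneys (0.148). Probe set 1448944_at had 1.83 ± 0.40 (0.00128), 1.22 ± 0.40 (0.027) and 0.36 ± 0.40 (0.516) in the same order. In TIMP2-/- kidneys all 3 calls were lost without TIMP2-/- UUO 1, TIMP2-/- UUO 2 or TIMP2-/- sham 3, with adjusted p from 0.054 to 0.141. After sham, Nrp1 averaged 1452 ± 415 units in TIMP3-/-, 1414 ± 576 in TIMP2-/- and 2531 ± 677 in WT kidneys. Its log2 difference from WT sham was -0.81 ± 0.37 in TIMP3-/- sham (adjusted p = 0.472) and -0.90 ± 0.37 in TIMP2-/- sham (adjusted p = 0.159), so neither passed. Without WT sham 3, which stood apart, Nrp1 in WT kidneys was 0.68 higher after UUO on the log2 scale and again did not pass (adjusted p = 0.232).

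Tek, which encodes the angiopoietin receptor TIE2, passed in no genotype. It read 651.2, 545.7 and 460.2 units in TIMP3-/- UUO against 564.4, 437.7 and 418.5 in TIMP3-/- sham, 423.6, 538.9 and 414.7 in TIMP2-/- UUO against 433.9, 422.6 and 363.4 in TIMP2-/- sham, and 392.4, 486.7 and 458.4 in WT UUO against 524.4, 579.8 and 574.3 in WT sham. The WT groups did not overlap and the others did. On the log2 scale the differences were 0.22 ± 0.16 in TIMP3-/- (adjusted p = 0.226), 0.17 ± 0.16 in TIMP2-/- (adjusted p = 0.409) and -0.33 ± 0.16 in WT kidneys (adjusted p = 0.12). The WT value passed as lower when arrays were quantile normalized again (-0.44, adjusted p = 0.038) or centred on their medians (-0.46, adjusted p = 0.0264).

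Cdh5 and Pecam1 passed as higher in TIMP3-/- and WT kidneys, and in TIMP2-/- kidneys they passed only under some other settings. Cdh5 encodes VE-cadherin, the adhesion molecule of endothelial junctions. Its leading probe set, 1433956_at, read 1219, 663.5 and 602.4 units in TIMP3-/- UUO against 321.9, 336.9 and 271.6 in TIMP3-/- sham. It read 585.7, 515.1 and 562.7 in TIMP2-/- UUO against 315.1, 338 and 425.4 in TIMP2-/- sham, and 430.6, 1043 and 525.1 in WT UUO against 290.4, 328.1 and 215.4 in WT sham. All 9 obstructed kidneys exceeded all 9 sham kidneys, and TIMP3-/- UUO 1 and WT UUO 2 lay far above the rest of their groups. The log2 fold changes were 1.35 ± 0.30 in TIMP3-/- (adjusted p = 0.00146), 0.64 ± 0.30 in TIMP2-/- (adjusted p = 0.105) and 1.17 ± 0.30 in WT kidneys (adjusted p = 0.00773).

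Without those 2 arrays, Cdh5 remained called, at 1.03 in TIMP3-/- (adjusted p = 0.000655) and 0.80 in WT kidneys (0.00846), and it also passed in TIMP2-/- kidneys at 0.64 (0.011). In WT kidneys it did not pass without WT UUO 2, WT sham 3 and TIMP3-/- UUO 2 (0.62, adjusted p = 0.126). In TIMP2-/- kidneys it passed without those arrays (0.64, adjusted p = 0.0322) and with only the arrays compared (0.64, adjusted p = 0.0131). The second Cdh5 probe set, 1422047_at, was dim at 27.26 to 47.93 units and passed in no genotype, with log2 fold changes of -0.29 ± 0.18, -0.20 ± 0.18 and 0.01 ± 0.18 (TIMP3-/-, TIMP2-/-, WT); with arrays centred on their medians it passed as lower in TIMP3-/- kidneys (-0.52, adjusted p = 0.0254).

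Pecam1 encodes CD31, an adhesion molecule of endothelium that platelets and leukocytes also carry. It read 958.3, 566.1 and 709.2 units in TIMP3-/- UUO against 448.7, 430.8 and 398.8 in TIMP3-/- sham. It read 505.7, 553.9 and 502.7 in TIMP2-/- UUO against 326.1, 377.6 and 408.5 in TIMP2-/- sham, and 521.4, 831.4 and 551.1 in WT UUO against 351.2, 383.5 and 298.1 in WT sham. As for Cdh5, the 9 UUO arrays lay above the 9 sham arrays, with the same 2 arrays on top. The log2 fold changes were 0.77 ± 0.19 in TIMP3-/- (adjusted p = 0.00339), 0.50 ± 0.19 in TIMP2-/- (adjusted p = 0.0573) and 0.86 ± 0.19 in WT kidneys (adjusted p = 0.00367). Without those 2 arrays, Pecam1 was 0.57 in TIMP3-/- (adjusted p = 0.00599), 0.50 in TIMP2-/- (0.0117) and 0.65 in WT kidneys (0.00713). In WT kidneys it was 0.55 without WT UUO 2, WT sham 3 and TIMP3-/- UUO 2 (adjusted p = 0.0306). In TIMP2-/- kidneys it passed without those arrays (0.50, adjusted p = 0.00944) and with only the arrays compared (0.50, adjusted p = 0.0197).

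Macrophage markers rose after UUO, while platelet genes did not move alike. All 13 macrophage markers measured rose in each genotype, and their summed intensity was 66538 to 96788 units in TIMP3-/- UUO against 9744 to 12762 in TIMP3-/- sham, 53285 to 54380 in TIMP2-/- UUO against 9989 to 12229 in TIMP2-/- sham, and 44414 to 79590 in WT UUO against 6322 to 9532 in WT sham. Of 6 platelet genes, 2 rose and 4 fell in TIMP3-/-, 1 rose and 4 fell in TIMP2-/-, and 1 rose and 0 fell in WT kidneys. The one that rose in all 3 was Pf4, a platelet chemokine gene (3.27 ± 0.54, 2.26 ± 0.54 and 3.26 ± 0.54), while Itga2b, which encodes a platelet integrin subunit, fell in TIMP3-/- and TIMP2-/- kidneys by 1.00 ± 0.18 and 0.75 ± 0.18 on the log2 scale. The median log2 fold change of the 6 was -0.59 in TIMP3-/-, -0.46 in TIMP2-/- and -0.21 in WT kidneys. Platelet sums, in which bright genes weigh most, were highest in TIMP3-/- UUO 1 and WT UUO 2, the 2 arrays with most Cdh5, at 9556 and 6740 units. The part of these cells in the rise of Nrp1, Pecam1 and Cdh5 was not tested.

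**Figure D3:**
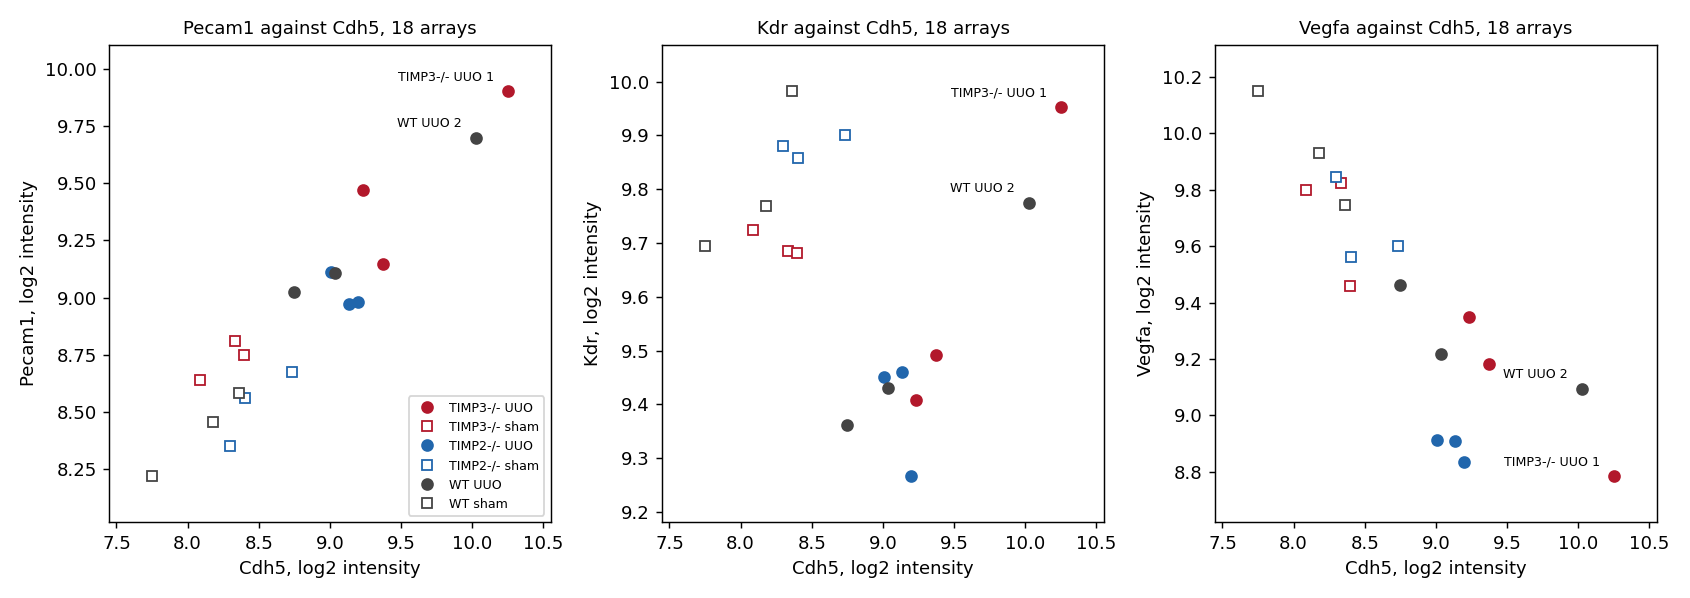
Log2 intensity of Pecam1, Kdr and Vegfa against that of Cdh5 on the 18 arrays, with filled circles for UUO and open squares for sham. TIMP3-/- UUO 1 and WT UUO 2 have the most Cdh5 and Pecam1 and more Kdr than the other UUO arrays. Vegfa is lower on the UUO arrays than on the sham arrays of the same genotype.

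Plvap, which encodes the diaphragm protein of fenestrated capillaries, passed as higher in WT kidneys. It read 3653, 2932 and 3817 units in TIMP3-/- UUO against 2799, 3156 and 2922 in TIMP3-/- sham, 3330, 3137 and 3513 in TIMP2-/- UUO against 2668, 3298 and 3524 in TIMP2-/- sham, and 3018, 3936 and 4397 in WT UUO against 2409, 2945 and 2235 in WT sham. The WT groups did not overlap, while those of the other 2 genotypes did. Its log2 fold change was 0.22 ± 0.16 in TIMP3-/- (adjusted p = 0.231), 0.08 ± 0.16 in TIMP2-/- (adjusted p = 0.706) and 0.57 ± 0.16 in WT kidneys (adjusted p = 0.0134). The WT call was lost without WT UUO 2, WT UUO 3 or WT sham 3 (adjusted p = 0.0527, 0.0534 and 0.0585) and with arrays centred on their medians (0.44, adjusted p = 0.0596).

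Ordered by their mean, the 3 UUO groups lay on one side and the 3 sham groups on the other for 8 of the 10 genes, all but Tek and Angpt2. The groups on either side of that step did not overlap for Vegfa, Flt1, Angpt1, Pecam1 and Cdh5. How many of all probe sets are ordered this way was not counted, so these counts are not read as particular to the 10 genes. Within a genotype, UUO and sham did not overlap for 61.9% of all probe sets in TIMP3-/-, 53.2% in TIMP2-/- and 47.8% in WT kidneys. For Vegfa the order from the lowest was TIMP2-/- UUO, TIMP3-/- UUO, WT UUO, TIMP2-/- sham, TIMP3-/- sham and WT sham, with means of 473.2 ± 14.4, 557.8 ± 107, 615.4 ± 81.6, 816.9 ± 89.2, 833.6 ± 113 and 990.1 ± 140 units (SD, n = 3). For Cdh5 the order from the highest was TIMP3-/- UUO, WT UUO, TIMP2-/- UUO, TIMP2-/- sham, TIMP3-/- sham and WT sham, with 828.3 ± 340, 666.2 ± 330, 554.5 ± 36.0, 359.5 ± 58.2, 310.1 ± 34.2 and 278 ± 57.4 units. In these 5 genes, neighbours in the order overlapped except at the step between operations. In Kdr, Tek, Angpt2 and Plvap all neighbours overlapped, and in Nrp1 only WT sham and TIMP3-/- sham did not.

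None of the 16 probe sets passed between genotypes, after UUO or after sham. For TIMP3-/- against WT after UUO, 0 passed, where 0.707% of all probe sets passed in limma. At an unadjusted p under 0.05 there were 2 of the 16, beside 20.5% of all probe sets. They were Flt1 by 1451756_at (0.41 ± 0.18, adjusted p = 0.215) and Nrp1 by 1418084_at (0.52 ± 0.24, adjusted p = 0.241). For TIMP2-/- against WT after UUO, 0 passed, where 0.0486% of all passed. At an unadjusted p under 0.05 there was 1 of the 16, beside 3.4% of all. It was Vegfa, at -0.37 ± 0.16 on the log2 scale (adjusted p = 1). For TIMP3-/- against TIMP2-/- after UUO, 0 passed, where 7.06% of all passed. At an unadjusted p under 0.05 there were 2 of the 16, beside 30.2% of all. They were Nrp1 by 1418084_at (0.66 ± 0.24, adjusted p = 0.0945) and Pecam1 (0.48 ± 0.19, adjusted p = 0.115). Without WT UUO 2, WT sham 3 and TIMP3-/- UUO 2, Pecam1 passed as higher in TIMP3-/- UUO against WT UUO (0.62, adjusted p = 0.0491) and against TIMP2-/- UUO (0.66, adjusted p = 0.0277). The arrays left out held its highest WT UUO value (831.4 units) and its lowest TIMP3-/- UUO value (566.1 units). Leaving them out therefore widens both differences, and fewer arrays remain. After sham, 0 passed for TIMP3-/- against WT (0.0442% of all passed) and 0 for TIMP2-/- against WT (0.0221% of all passed). At an unadjusted p under 0.05 there were 3 of the 16 for TIMP3-/- sham, beside 10.6% of all. For TIMP2-/- sham there were 5 of the 16, beside 25.8% of all. Those of TIMP3-/- sham were the 3 Nrp1 probe sets; those of TIMP2-/- sham were the 3 Nrp1 probe sets, Tek (-0.46 ± 0.16, adjusted p = 0.145) and the dim Cdh5 probe set (0.38 ± 0.18).

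The response to obstruction was compared between genotypes as the difference of the log2 fold changes. 0 of the 16 passed in each of the 3 differences, and limma called 0% of the 22626 probe sets in each. At an unadjusted p under 0.05 there were 5 of the 16 for TIMP3-/- minus WT (25.9% of all), 2 for TIMP2-/- minus WT (8.91%) and 1 for TIMP3-/- minus TIMP2-/- (10%). The widest differences were in Nrp1: 1.22 for TIMP3-/- minus WT by the leading probe set (95% interval 0.12 to 2.31, adjusted p = 0.173), 1.22 by 1418084_at (0.50 to 1.95, adjusted p = 0.167) and 1.48 by 1448944_at (0.29 to 2.67, adjusted p = 0.167). Without WT UUO 2, WT sham 3 and TIMP3-/- UUO 2 these Nrp1 differences were 0.75, 1.07 and 1.02 (adjusted p = 0.485, 0.293 and 0.405). Flt1 by 1451756_at differed by 0.72 in TIMP3-/- minus WT (0.18 to 1.26, adjusted p = 0.167), and by 0.48 without WT sham 3 (adjusted p = 0.384). Tek differed by 0.55 in TIMP3-/- minus WT (0.08 to 1.03, adjusted p = 0.169) and by 0.50 in TIMP2-/- minus WT (0.03 to 0.97, adjusted p = 0.551). Plvap differed by -0.49 in TIMP2-/- minus WT (-0.97 to -0.01, adjusted p = 0.551). For Vegfa the interval ran from -0.39 to 0.58 in TIMP3-/- minus WT and from -0.58 to 0.39 in TIMP2-/- minus WT; for Cdh5 it ran from -0.72 to 1.07 and from -1.43 to 0.35; for Pecam1 from -0.67 to 0.50 and from -0.94 to 0.22, in the same order. These comparisons share the WT groups, so their values are not independent.

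**Figure D4:**
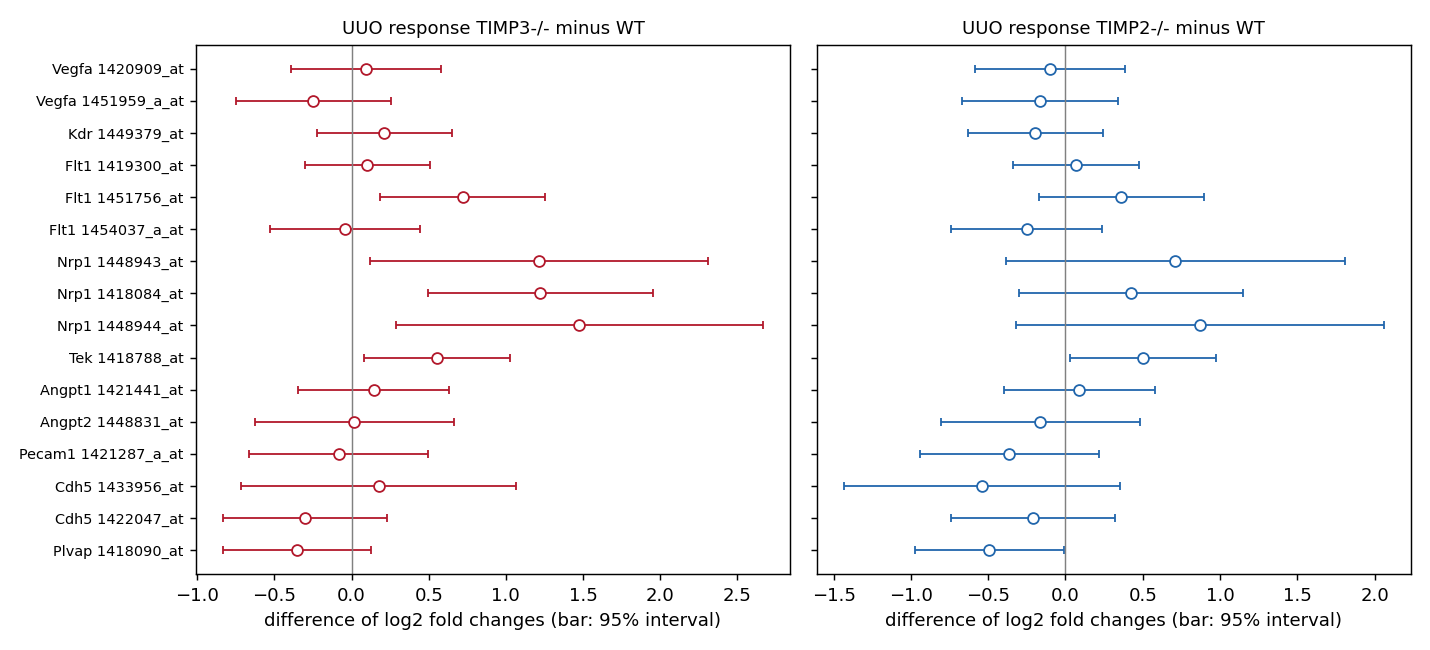
Difference of the log2 fold changes after UUO, TIMP3-/- minus WT on the left and TIMP2-/- minus WT on the right, for the 16 probe sets, with 95% intervals. The 3 Nrp1 intervals lie right of 0 on the left panel (1.22, 1.22 and 1.48), and no value passed after adjustment over all probe sets.

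Other genes of the pathway moved unequally. Of 15 measured genes of VEGF and angiopoietin signalling outside the 10, 8 rose and 3 fell in TIMP3-/-, 4 rose and 2 fell in TIMP2-/-, and 4 rose and 1 fell in WT kidneys; their medians were 0.50, 0.05 and 0.45, beside -0.18, -0.12 and -0.12 over all probe sets. Vegfb, a ligand of FLT1, fell in all 3, by 1.12 ± 0.19, 1.06 ± 0.19 and 0.73 ± 0.19 on the log2 scale. Vegfd, a lymphatic growth factor, rose in all 3 by 1.54 ± 0.17, 0.71 ± 0.17 and 1.35 ± 0.17, and so did Plxnd1, a semaphorin receptor of endothelium (1.04 ± 0.18, 0.62 ± 0.18 and 1.01 ± 0.18). The counts of risen genes moved with the processing: with arrays centred on their medians, 4 rose in TIMP3-/- and 2 in TIMP2-/- kidneys. 5 rose in TIMP3-/- without TIMP3-/- UUO 1 or TIMP3-/- sham 1, and as few as 1 in TIMP2-/- without TIMP2-/- UUO 2 or TIMP2-/- sham 1.

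Among 26 further endothelial markers, 13 rose and 2 fell in TIMP3-/-, 4 rose and 2 fell in TIMP2-/-, and 10 rose and 1 fell in WT kidneys, with medians of 0.45, 0.01 and 0.46, where 25%, 14.1% and 14.7% of all probe sets rose. Cd93, a C-type lectin family gene of endothelium and myeloid cells, rose by 2.04 ± 0.31, 1.34 ± 0.31 and 1.33 ± 0.31. Aplnr, the apelin receptor, rose by 1.94 ± 0.35, 1.57 ± 0.35 and 2.42 ± 0.35, and Cd34, a sialomucin of capillary endothelium, by 1.51 ± 0.22, 0.97 ± 0.22 and 1.55 ± 0.22. Vwf, von Willebrand factor, rose in TIMP3-/- and WT kidneys (1.66 ± 0.40 and 1.78 ± 0.40) and was at 0.45 ± 0.40 in TIMP2-/- kidneys. With arrays centred on their medians, 6 of the 26 rose in TIMP3-/- kidneys, and 5 rose in WT kidneys without WT UUO 2, WT sham 3 and TIMP3-/- UUO 2. The summed intensity of the list was 21213 to 33851 units in TIMP3-/- UUO against 14597 to 16706 in TIMP3-/- sham, 18442 to 21144 in TIMP2-/- UUO against 13736 to 17547 in TIMP2-/- sham, and 17853 to 27919 in WT UUO against 11318 to 14006 in WT sham. Bright genes weigh most in these sums. The mean log2 intensity of the list overlapped in TIMP2-/- kidneys (8.79 to 8.93 after UUO, 8.52 to 8.87 after sham). It did not overlap in TIMP3-/- (8.96 to 9.55 against 8.63 to 8.81) or WT kidneys (8.77 to 9.31 against 8.25 to 8.57).

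Of 7 measured genes listed for endothelial activation and adhesion, 6, 5 and 6 rose and 0 fell in TIMP3-/-, TIMP2-/- and WT kidneys. Among all probe sets 25%, 14.1% and 14.7% rose in the same order. In whole-kidney RNA the cells that carried these transcripts cannot be told apart, so endothelial activation itself was not tested. Vcam1, a leukocyte adhesion molecule, rose by 4.64 ± 0.25, 4.97 ± 0.25 and 4.07 ± 0.25 on the log2 scale, and Edn1, the gene of the vasoconstrictor endothelin-1, rose by 1.63 ± 0.28, 1.62 ± 0.28 and 1.69 ± 0.28. Of 13 genes of endothelial Notch signalling and tip cells, 5 rose and 1 fell in TIMP3-/-, 2 rose and 0 fell in TIMP2-/-, and 4 rose and 1 fell in WT kidneys. The share risen in TIMP2-/- kidneys was close to that of all probe sets. Among all probe sets 37.5%, 20.9% and 16.1% fell. Pdgfb, the endothelial signal that draws in mural cells, rose by 1.02 ± 0.19, 0.76 ± 0.19 and 1.29 ± 0.19.

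Of 9 inhibitors of angiogenesis measured, 7 rose in each genotype, 0 fell in the 2 knockouts and 1 fell in WT kidneys, with medians of 2.69, 2.23 and 2.31. Thbs2, thrombospondin 2, rose by 4.77 ± 0.49, 3.32 ± 0.49 and 4.44 ± 0.49, and Serpinf1, which encodes pigment epithelium-derived factor, rose by 3.98 ± 0.64, 2.65 ± 0.64 and 4.56 ± 0.64. The one that fell in WT kidneys was Col4a3, a basement membrane collagen whose fragment is antiangiogenic (-1.48 ± 0.40); it was named after its value was seen.

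Of 10 mural cell markers, 7 rose in TIMP3-/-, 3 in TIMP2-/- and 4 in WT kidneys (with 1 fallen there). When probe sets with a suffix in their name were left out these were 4, 0 and 1. The leading probe sets of Pdgfrb, Mcam, Notch3 and Abcc9 carry such a suffix, so these counts are not out of the same 10 probe sets. Pdgfrb, the receptor of PDGF-B on pericytes, rose by 1.83 ± 0.21, 1.59 ± 0.21 and 2.12 ± 0.21. Between obstructed kidneys, 4 of the 10 mural markers were higher in TIMP3-/- UUO than in TIMP2-/- UUO, where 7.06% of all probe sets passed and that count ran from 26 to 5577 probe sets over the settings tried; the leading ones being Cnn1, a smooth muscle calponin gene (3.09 ± 0.73), Myh11, a smooth muscle myosin gene (2.47 ± 0.49), and Rgs5, a pericyte marker (2.31 ± 0.58). Of the 26 endothelial markers, 2 passed between these groups, a share close to that of the array, and 1 passed between TIMP3-/- UUO and WT UUO, where 0.707% of all did. Ednrb, the endothelin B receptor, was higher in TIMP3-/- UUO than in TIMP2-/- UUO (1.42 ± 0.19, adjusted p = 0.00176) and WT UUO (1.18 ± 0.19, adjusted p = 0.011), and S1pr1, a sphingosine 1-phosphate receptor gene, than in TIMP2-/- UUO (1.02 ± 0.18, adjusted p = 0.00957). Between TIMP2-/- UUO and WT UUO, 0 of the 26 passed in limma's test.

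Vegfa is a known target of the hypoxia-inducible factors, and other genes of that response were read beside it. Of 17 measured, 2 rose and 7 fell in TIMP3-/-, 1 rose and 3 fell in TIMP2-/-, and 2 rose and 5 fell in WT kidneys, with medians of -0.26, -0.13 and -0.11. Among all probe sets 37.5%, 20.9% and 16.1% fell and 25%, 14.1% and 14.7% rose, in the same order. Car9, carbonic anhydrase 9, fell by 2.38 ± 0.29, 1.64 ± 0.29 and 1.46 ± 0.29, while Hk2, hexokinase 2, rose by 2.00 ± 0.28, 1.42 ± 0.28 and 1.73 ± 0.28. In WT kidneys 3 fell without WT UUO 2, and in TIMP2-/- kidneys 1 fell without TIMP2-/- UUO 1, UUO 2, sham 1 or sham 2.

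**Figure D5:**
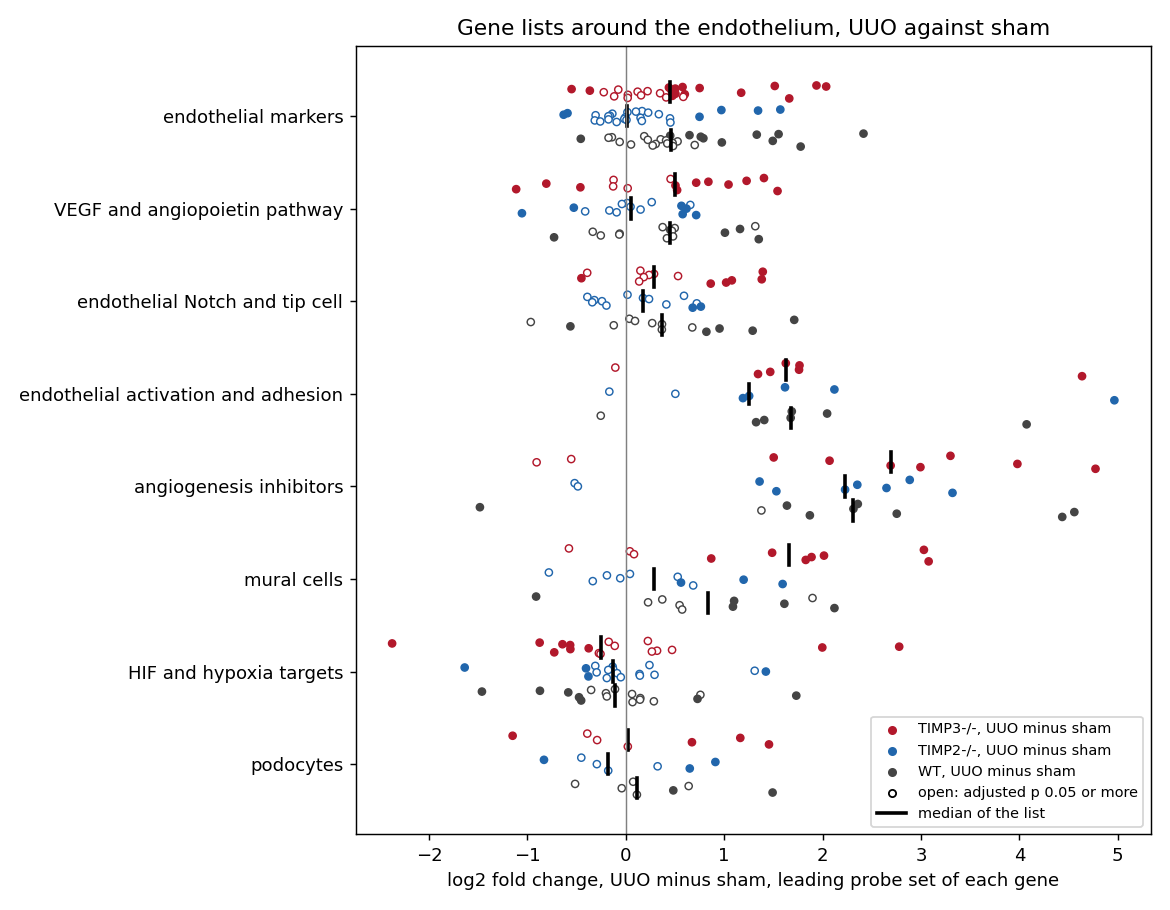
Log2 fold change, UUO minus sham, of the leading probe set of each gene in 8 lists, for TIMP3-/-, TIMP2-/- and WT kidneys, with filled points for an adjusted p under 0.05 and a black bar at the median of the list. Angiogenesis inhibitors have medians of 2.69, 2.23 and 2.31 and lie furthest right; HIF and hypoxia targets centre at -0.26, -0.13 and -0.11.

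The genes whose pattern was most like each member were found by Pearson's r of log2 intensity over the 18 arrays, among 9047 genes of at least 100 units; the arrays share the obstruction contrast and their dissections, so r describes these arrays only. For Vegfa they were Acss1 (0.924) and Ndufb5 (0.912), for Flt1 Svs5 (0.933) and Cmip (0.929), and for Kdr Ecm1 (0.887) and Fmo5 (0.841). Cdh5 was followed most closely by Lama4 (0.976), a laminin gene of vessel basement membrane, and Cavin3 (0.973), and Pecam1 by Myl9 (0.967) and Klc1 (0.961). Nrp1 was most like Nup160 (0.982) and Ptpn12 (0.981), Plvap like Crip2 (0.919) and Ppp1r14a (0.916), and Tek like Xpot (0.888) and Uso1 (0.864). For the dim Angpt1 they were Lce1a1 (0.892) and Oas1e (0.874), and Angpt2 had no close match, with Aldh1a3 at 0.707 and Fst at 0.646.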

How the data were processed

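The 18 arrays carried total RNA of operated-side kidneys, 3 arrays in each of 6 groups, and were grouped by their titles. The authors deposited linear intensity values, 1 per probe set and array, made with RMA per the submitters' processing notes (robust multi-array average: background correction, quantile normalization and summary of probes); its version and the step back to a linear scale are not given in the sources used here. Quantile normalization hides a shift of all transcripts in 1 direction. The number of arrays limits the precision.

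From these values log2 intensities were taken with no pseudocount, and 64 control probe sets of 22690 were left out. Of the rest, 20380 were paired with 1 gene symbol, 691 with several and 1555 with none. limma 3.58.1 in R 4.3.3 fitted 6 group means to all 18 arrays (12 residual and 3.28 prior degrees of freedom), with p-values adjusted by the Benjamini-Hochberg method over 22626 probe sets in each of 11 comparisons and a threshold of 0.05. Rank or permutation tests of 3 against 3 arrays were not used, since they cannot give a p below 0.1. Simulated data for UUO against sham in WT were made at the measured spreads over 22626 probe sets. The fit recovered 64 of 105 changes of 1 (61%) and 90 of 95 changes of 2 (94.7%) on the log2 scale. Far fewer probe sets were changed there than the 6971 that passed in WT kidneys. With so few changed the adjustment is stricter, so these shares do not give the recovery in the measured data.

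The members and the 16 gene lists were chosen with earlier results of these data known. From each list, the genes named are among the 3 largest changes that passed in a comparison; the 2 genes most like each member were named by Pearson's r. Same-numbered arrays deviated together in all 3 pairs for TIMP2-/- UUO against sham (correlations of 0.28 to 0.56) and for TIMP2-/- against WT after UUO (0.18 to 0.48), and the block changed no call there. Other settings were another quantile normalization, median centring, 50 units added, filters on dim or suffixed probe sets, a trended robust fit, only the arrays compared, and arrays left out. Promoter windows came from RefSeq on GRCm38.p6.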

Additional observations from a re-analysis of the deposited data

How the results depend on the processing

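None of the values for the 16 probe sets that passed turned its sign under any alternative. With 1 probe set per gene, 5 of 10 passed in TIMP2-/- kidneys, UUO against sham, beside 8 of 16. In WT kidneys 4 passed in place of 8 with only the arrays compared, and also 4 without WT UUO 2, WT sham 3 and TIMP3-/- UUO 2. Without those 3 arrays, 1 in place of 0 passed for TIMP3-/- against WT and 1 for TIMP3-/- against TIMP2-/- after UUO (Pecam1 in both). The arrays left out held the highest WT UUO and the lowest TIMP3-/- UUO value of Pecam1. With single arrays left out, 7 to 9 passed in TIMP3-/-, 2 to 8 in TIMP2-/- and 5 to 8 in WT kidneys, and 0 in each comparison between genotypes; the lowest TIMP2-/- counts came without TIMP2-/- UUO 1 (2), TIMP2-/- UUO 2 (3) and TIMP2-/- sham 3 (4), and the lowest WT count without WT sham 3. Without WT UUO 2 and TIMP3-/- UUO 1, Flt1 (-0.42, adjusted p = 0.0569), Plvap (0.54, 0.0601) and Angpt1 (-0.45, 0.109) no longer passed in WT kidneys and Kdr did (-0.42, 0.022), while Angpt1 was also lost in TIMP3-/- (adjusted p = 0.127) and TIMP2-/- kidneys (0.0515). The causes were not tested. With the replicate number as a block, 8 passed in TIMP3-/-, 8 in TIMP2-/- and 8 in WT kidneys and 0 elsewhere, so that the call of Angpt1 in TIMP3-/- kidneys changed and no other. The titles give the number and not what it pairs. Same-number correlations ran from -0.58 to 0.61, with 12 of 24 over 0.1. UUO arrays numbered 2 and 3 also deviated together for TIMP3-/- against WT (0.24 and 0.61) and against TIMP2-/- (0.47 and 0.51). Those numbered 1 did not (-0.32 and -0.22). Over all probe sets, the count of TIMP3-/- against TIMP2-/- after UUO was 1597 and ran from 112 to 5577 with single arrays left out and from 26 to 2184 under other settings; that of TIMP3-/- against WT after UUO was 160 and ran from 35 to 2485 and from 5 to 812. The counts of UUO against sham ran from 11035 to 14853 (main value 14145) in TIMP3-/-, 4033 to 9630 (7922) in TIMP2-/- and 4405 to 7397 (6971) in WT kidneys with single arrays left out, and from 8001 to 15694, 4692 to 9758 and 3852 to 8269 under other settings. Angpt1 and the dim Flt1 and Cdh5 probe sets lie near the array background, where fold changes are compressed.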

Other observations

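Other markers of vessels and of tissue that could lie beside the kidney were read with the same fit, UUO against sham. Of 5 lymphatic endothelial markers, 2 rose and 2 fell in TIMP3-/-, 1 rose and 2 fell in TIMP2-/-, and 1 rose and 1 fell in WT kidneys. Of 5 markers of liver endothelium, 2 rose and 3 fell in TIMP3-/-, 1 rose and 2 fell in TIMP2-/-, and 2 rose and 2 fell in WT kidneys. Of 13 hepatocyte markers, 1 rose and 2 fell in TIMP3-/-, 2 rose and 1 fell in TIMP2-/-, and 4 rose and 0 fell in WT kidneys, where WT UUO 2 held 113177 units of their summed intensity. Adipocyte markers rose in 4, 1 and 4 of 5 in TIMP3-/-, TIMP2-/- and WT kidneys, with sums of 2443 to 18706 units in TIMP3-/- UUO against 839.3 to 1455 in TIMP3-/- sham, 5190 to 6088 in TIMP2-/- UUO against 1067 to 1874 in TIMP2-/- sham, and 3068 to 15542 in WT UUO against 882.7 to 2225 in WT sham. All 3 red cell markers fell in each genotype, with medians of -2.82 in TIMP3-/-, -2.54 in TIMP2-/- and -1.57 in WT kidneys. The part of these tissues in the values of the vessel genes was not tested.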
